A study of Homo sapiens with 20 samples.

Results

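The antioxidant and glutathione genes are a module of 49 genes, taken by gene symbol from a fixed list, out of 28051 named genes in the RNA tables. The list holds 9 genes of the NRF2 system with heme, iron and export genes, 18 of the glutathione system, 17 of the thioredoxin system and 5 of the superoxide system, and all 49 were found. Of these, 45 were expressed above the filter and tested. The other 4 (GPX3, GPX7 and GPX8, glutathione peroxidases, and SELENOP, a secreted selenium carrier) were at or near 0: GPX7 had 0 counts in all 12 libraries, where a count of 0 allows up to 3, and the highest value among the other three was 5. Besides RNA, 23 of 8286 regions of accessible chromatin name a member as a gene near them.

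Cells meet superoxide and hydrogen peroxide with a chain of enzymes. Superoxide dismutases turn superoxide into hydrogen peroxide, and catalase, glutathione peroxidases and peroxiredoxins reduce the peroxide. Glutathione is made by glutamate cysteine ligase and glutathione synthetase and is kept reduced by glutathione reductase, while peroxiredoxins and methionine sulfoxide reductases are recharged by thioredoxin and thioredoxin reductase, and both branches draw on NADPH. The transcription factor NRF2 (gene NFE2L2) induces many of these genes through the antioxidant response element, KEAP1 marks NRF2 for degradation, and BACH1 represses the same elements. In maturing neutrophils the NADPH oxidase makes superoxide on purpose, so these enzymes work in a cell that is itself a source of oxidants.

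The measurements come from HL60, a human acute myeloid leukemia line of promyelocytic type that matures toward neutrophils under all-trans retinoic acid (ATRA). Cells carried the lentiCRISPRv2 vector with Cas9 and were selected with puromycin, either as Cas9 expressing control or as HK3-null, in which hexokinase 3 (HK3) was targeted, and were grown from single clones. Each genotype received 1 µM ATRA or 0.01% DMSO, the diluent, for 36 h, giving 4 groups with 3 RNAseq libraries of 200000 cells and 2 ATACseq libraries of 100000 cells each. The study followed reactive oxygen species in such cells, and the comparisons below ask how the genes that remove these species differed between treatments and genotypes. The libraries of the targeted genotype share 1 knockout name, so a difference between genotypes and a difference between these cell populations cannot be told apart. Less RNA per cell and fewer cells of a state cannot be told apart either in bulk samples.

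The libraries had 29056349 to 31549781 normalized counts each, the deposited unit, which is not divided by gene length, so levels are compared between groups of 1 gene and never between genes. RNA of HK3 itself was not lower in the HK3-null libraries. With DMSO they had 302 to 346 counts against 65 to 105 in Cas9 control (1.96 on the log2 scale, adjusted p = 1.11e-05). With ATRA they had 1285 to 1975 against 1298 to 1850 (0.05, adjusted p = 0.836). The study checked its knockout clones by sequencing the targeted DNA and by mass spectrometry of the protein, and RNA level measures neither. HK3-null means the libraries labelled so throughout, and a loss of HK3 RNA was not seen in these values. HL60 markers were high in every library (7 genes, summed level 551801 to 827973), while the B cell, epithelial and erythroid markers summed to at most 110 and the T cell list, at 6048 to 13856, was nearly all CD4, which myeloid cells also make. The summed counts of 5 maturation markers, among them CYBB, NCF1 and TGM2, differed with both factors. They were 269 to 337 in Cas9 control with DMSO and 17454 to 19078 with ATRA. In HK3-null they were 8439 to 9748 with DMSO and 95172 to 103071 with ATRA. CYBB alone had 7412 to 8696 of the counts in HK3-null with DMSO and 44349 to 47716 with ATRA. TGM2 had 30084 to 39244 in HK3-null with ATRA, but with DMSO 4 to 12 against 1 to 10 in Cas9 control. The part of these markers in the results on the module was not tested. Cas9 control DMSO replicate 1 stood apart, with 16750 genes above 0 against 15031 to 15801 elsewhere and 429 counts over the fibroblast markers against 10 to 50, 321 of them from the collagen gene COL1A1.

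With ATRA in Cas9 control, 9 of 45 rose (20.0%, against 20.3% of all 13256 genes tested) and 14 fell (31.1% against 21.3%). In HK3-null cells 14 rose with ATRA (31.1% against 24.0%) and 17 fell (37.8% against 25.1%). Between genotypes with DMSO, 12 members were higher in HK3-null (26.7% against 27.9%) and 16 lower (35.6% against 27.1%), and with ATRA 17 were higher (37.8% against 29.6%) and 11 lower (24.4% against 29.5%). A gene passed at an adjusted p under 0.05 in limma, with Benjamini-Hochberg adjustment over all 13256 genes.

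Changes of at least 2-fold were few. They were found in 2 members (4.44%) with ATRA in Cas9 control, against 9.63% of all genes, and in 5 members (11.1%) with ATRA in HK3-null, against 14.1%. Between genotypes the count was 4 (8.89% against 19.3%) with DMSO and 5 (11.1% against 21.3%) with ATRA. The median log2 fold change of the 45 members lay between -0.10 and 0.05 in all 5 comparisons, where the median of all genes lay between -0.01 and 0.01. Without Cas9 control DMSO replicate 1 the counts passing were 20 in place of 23 and 29 in place of 31 for the ATRA responses. They were 23 in place of 28 and 28 as before for the genotype comparisons, and 10 in both for the difference of the ATRA responses, though with TXNRD2 in place of GSR.

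**Figure D1:**
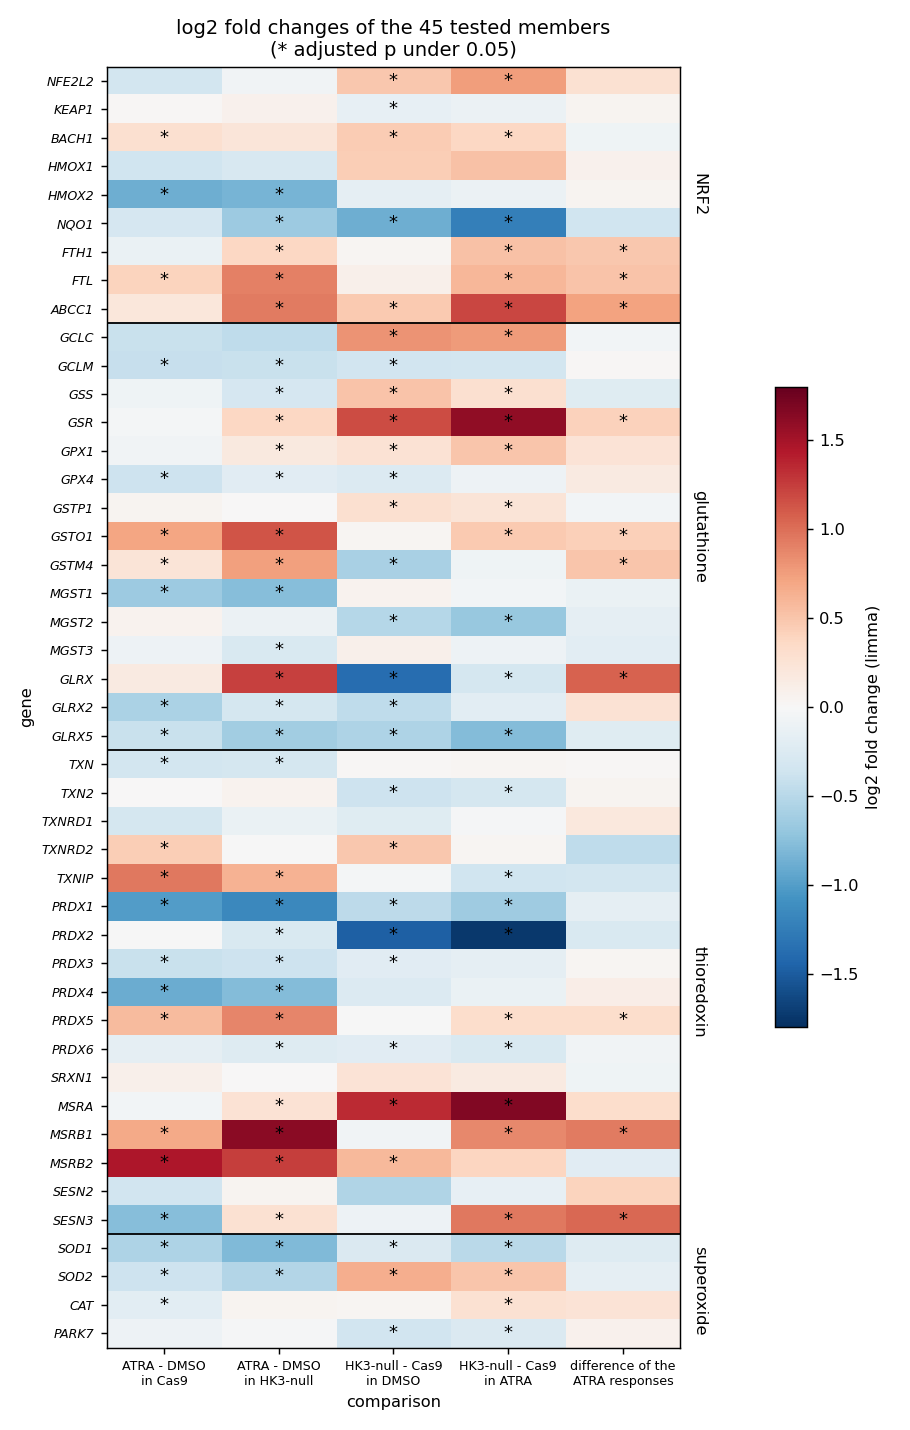
Each row is 1 of the 45 tested genes, grouped by system, and each column 1 comparison. The color gives the log2 fold change from limma and a star marks an adjusted p under 0.05. Starred red and starred blue fields occur together in most systems in the first 4 columns, and in the last column, the difference of the ATRA responses, all 10 stars sit on red fields.

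Among the regulators of the NRF2 pathway, NFE2L2 (chromosome 2, 177230303 to 177264727, GRCh38) itself was higher in HK3-null cells. Its normalized counts in replicates 1 to 3 were 2013, 1768 and 1554 in Cas9 control with DMSO, 1703, 1279 and 1279 with ATRA, 2745, 2491 and 2223 in HK3-null with DMSO, and 2580, 2447 and 2134 with ATRA. Every HK3-null library lay above every Cas9 control library, by 0.49 ± 0.13 (log2 fold change ± SE, n = 3 per group, adjusted p = 0.00911) with DMSO and 0.76 ± 0.13 (adjusted p = 0.000465) with ATRA. BACH1, the repressor that competes for the same elements, was higher too. It had 1419, 1275 and 1166 counts in Cas9 control against 1834, 1825 and 1616 in HK3-null with DMSO (0.45 ± 0.09, adjusted p = 0.00123), and 1756, 1491 and 1477 against 2126, 1995 and 1984 with ATRA (0.37 ± 0.09, adjusted p = 0.0038). RNA of the activator and of the repressor was thus higher in the same libraries, without overlap between the genotypes within a treatment. KEAP1, the adaptor that brings NRF2 to its ubiquitin ligase, had 2637, 2430 and 2698 counts in Cas9 control with DMSO, 2649, 2614 and 2610 with ATRA, 2334, 2331 and 2305 in HK3-null with DMSO and 2435, 2620 and 2289 with ATRA. Its groups lay close together, and it was lower in HK3-null with DMSO by little, -0.15 ± 0.06 (adjusted p = 0.0395), a call that ended when any of 7 single libraries was left out (adjusted p = 0.0507 to 0.13), and -0.10 ± 0.06 with ATRA (adjusted p = 0.146).

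With ATRA, NFE2L2 was -0.33 ± 0.13 in Cas9 control (adjusted p = 0.0682) and -0.06 ± 0.13 in HK3-null (adjusted p = 0.752), and neither passed. With the replicate block the first did (adjusted p = 0.000599). BACH1 rose with ATRA in Cas9 control by 0.29 ± 0.09 (adjusted p = 0.0224), a call that ended without Cas9 control ATRA replicate 1, DMSO replicate 2 or DMSO replicate 3 (adjusted p = 0.0585 to 0.0843). In HK3-null its difference with ATRA was 0.21 ± 0.09 (adjusted p = 0.0709, and 0.00397 with the block).

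The genes that NRF2 is known to induce differed in both directions. Of 12 such targets tested, 3 were higher and 3 lower in HK3-null with DMSO, where 27.9% and 27.1% of all genes were, and 5 were higher and 2 lower with ATRA, against 29.6% and 29.5%. Of those higher with DMSO, the calls of GSR and GCLC ended with the median change of their chromosome subtracted (adjusted p = 0.327 and 0.254), as did that of GCLC with ATRA (0.442). Of those lower with DMSO, the call of GCLM ended when any of 9 single libraries was left out. NQO1 (chromosome 16, 69709401 to 69726560), the quinone reductase often read as a measure of NRF2 activity, was lower in HK3-null. Its counts were 269, 204 and 184 in Cas9 control with DMSO against 133, 117 and 105 in HK3-null, and 170, 174 and 181 against 89, 85 and 55 with ATRA. All 6 HK3-null libraries lay below all 6 Cas9 control libraries, by 0.88 ± 0.20 (adjusted p = 0.00308) and 1.23 ± 0.20 on the log2 scale (adjusted p = 0.00026). NQO1 also fell with ATRA in HK3-null by 0.66 ± 0.20 on the log2 scale (adjusted p = 0.0173), which ended without HK3-null ATRA replicate 3 (adjusted p = 0.0593) or HK3-null DMSO replicate 1 (adjusted p = 0.0661).

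HMOX1, the inducible heme oxygenase, was barely expressed. It had 17, 5 and 3 counts in Cas9 control with DMSO, 10, 3 and 4 with ATRA, 8, 9 and 9 in HK3-null with DMSO and 9, 8 and 5 with ATRA, overlapped in all groups and passed in no comparison (adjusted p = 0.502 to 0.977). It was the sole tested member under 28 counts in any library. HMOX2, the constitutive heme oxygenase, fell with ATRA from 1796, 1644 and 1908 to 1016, 912 and 966 counts in Cas9 control (-0.88 ± 0.07, adjusted p = 2.6e-06) and from 1602, 1511 and 1687 to 892, 861 and 927 in HK3-null (-0.84 ± 0.07, adjusted p = 2.25e-06). The groups with and without ATRA did not overlap, and the genotype difference did not pass in either treatment (adjusted p = 0.0863 and 0.204), but did with the replicate block (0.00967 and 0.0441).

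Ferritin, which stores iron in a form that does not feed radical formation, rose more with ATRA in HK3-null. FTL, the light chain, had 89079, 82477 and 86200 counts in Cas9 control with DMSO and 114493, 111455 and 113105 with ATRA. In HK3-null it had 91393, 90504 and 93023 with DMSO and 172496, 177702 and 164349 with ATRA. The 3 HK3-null ATRA libraries thus lay above all others, and the rise was 0.40 ± 0.05 (adjusted p = 7.27e-05) in Cas9 control and 0.90 ± 0.05 (adjusted p = 6.04e-08) in HK3-null. FTH1, the heavy chain, was -0.12 ± 0.07 with ATRA in Cas9 control (adjusted p = 0.212) and rose by 0.37 ± 0.07 in HK3-null (adjusted p = 0.00165), where its counts went from 3094, 3167 and 3105 to 4043, 4415 and 3647. With DMSO the genotypes differed by 0.04 ± 0.07 for FTH1 (adjusted p = 0.677), and with ATRA HK3-null was higher by 0.53 ± 0.07 (adjusted p = 8.49e-05) for FTH1 and 0.60 ± 0.05 (adjusted p = 1.11e-06) for FTL. Both ferritin genes have many near-identical pseudogene copies and the sources used here do not say how such reads were split, so their levels are uncertain.

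ABCC1, a pump that exports glutathione conjugates, also reached its highest level in HK3-null with ATRA. Its counts were 2454, 2116 and 2369 in Cas9 control with DMSO, 2656, 2616 and 2725 with ATRA, 3213, 3037 and 3375 in HK3-null with DMSO, and 6078, 5039 and 7570 with ATRA. The HK3-null libraries were above the Cas9 control libraries in both treatments, and the 3 with ATRA stood far above the rest though they spread most. ABCC1 rose with ATRA in HK3-null by 0.94 ± 0.12 (adjusted p = 5.17e-05) and was 0.21 ± 0.12 in Cas9 control (adjusted p = 0.185). HK3-null exceeded Cas9 control by 0.47 ± 0.12 with DMSO (adjusted p = 0.00539) and 1.20 ± 0.12 with ATRA (adjusted p = 4.91e-06).

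**Figure D2:**
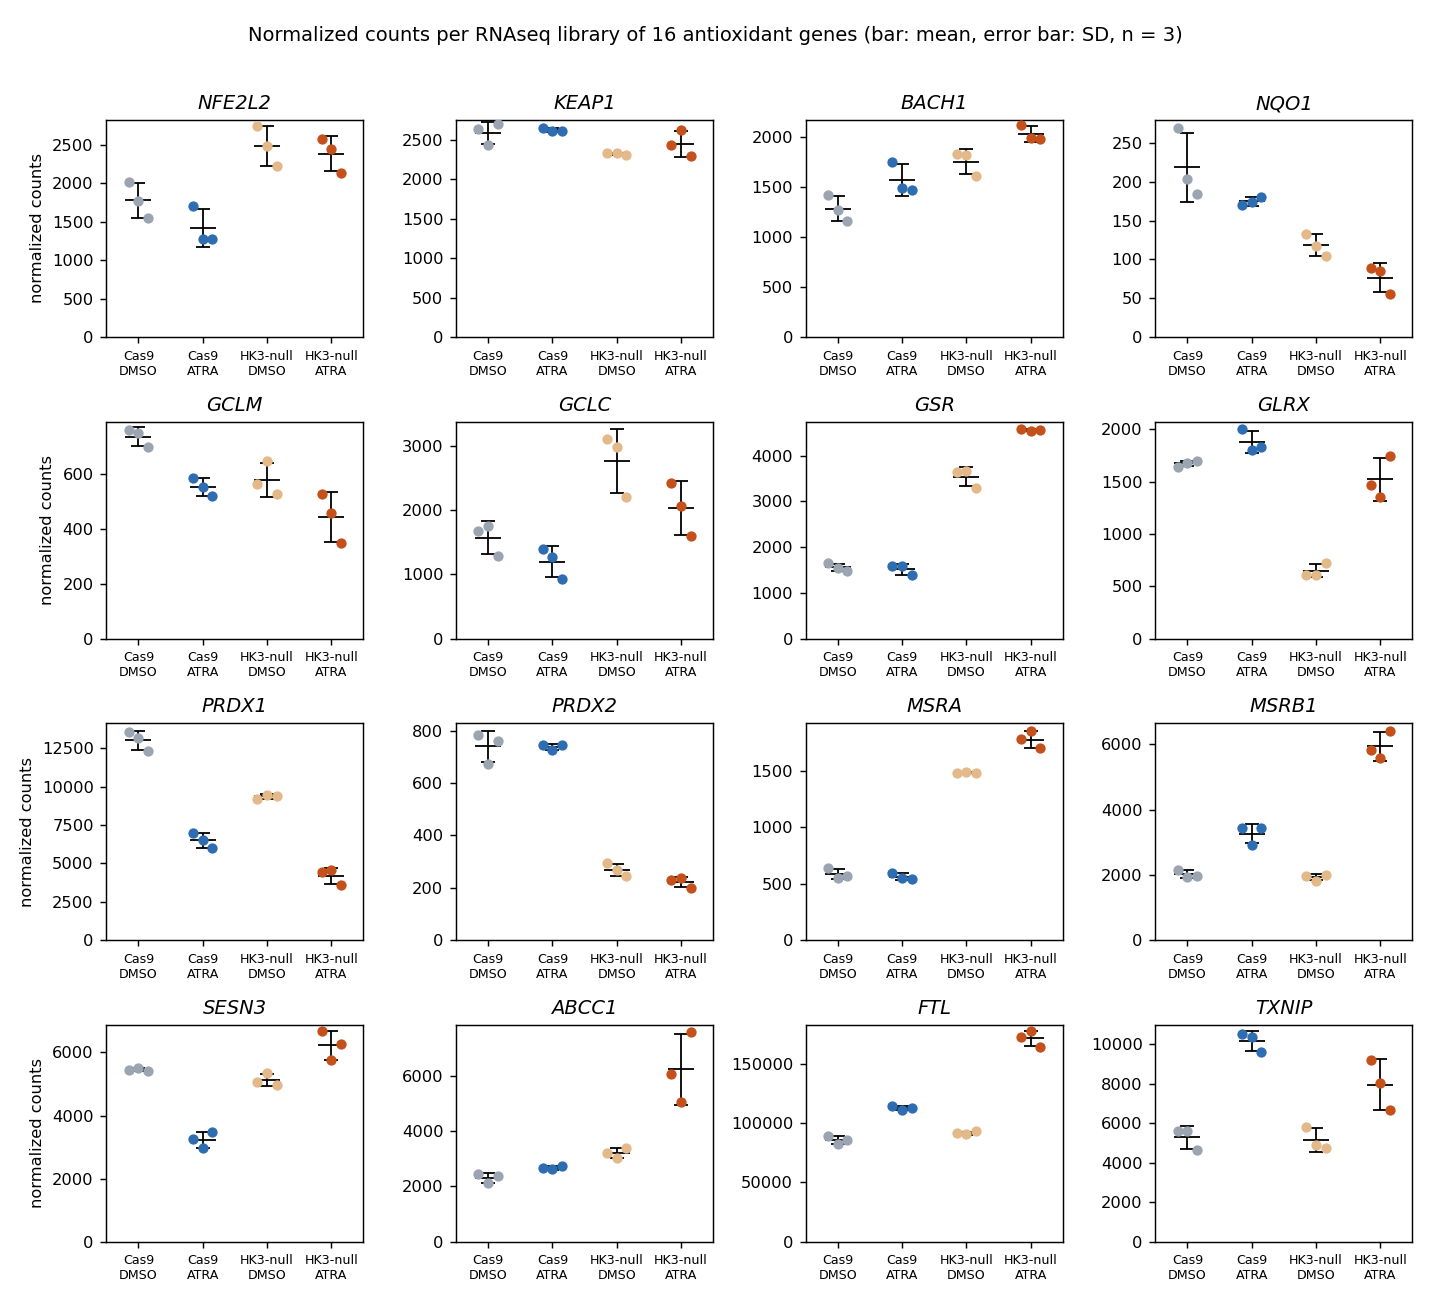
Each panel is 1 gene, with normalized counts on the vertical axis from 0 and the 4 groups along the horizontal axis. Points are the 3 libraries of a group in replicate order, the bar is their mean and the error bar their SD. NQO1 and PRDX2 are low in both HK3-null groups, GSR and MSRA are high in both, and SESN3, MSRB1, ABCC1 and FTL stand out in HK3-null with ATRA.

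The core of the antioxidant response element, TGACNNNGC, was searched on both strands in the promoters that RefSeq gives (GRCh38.p14, 250 bases before to 50 after the start). It was found in 6 of 38 member promoters (15.8%) and in 4687 of all 35116 promoters of the same length (13.3%), so the member promoters held it about as often as any. The 5 tested members with the core are GCLM, GSTO1, GSTP1, PARK7 and TXNRD1, and the other match is in SELENOP, whose RNA was near 0. The sequences are shown because these genes, which share the letters, did not share a direction. GSTP1 was higher in HK3-null in both treatments, PARK7 was lower in both, GSTO1 rose with ATRA and GCLM fell with ATRA. TXNRD1 passed in no comparison in the fit of all libraries without the replicate block. Capitals mark the core, each promoter is written in the direction of its gene, and a match of letters is a description and not a site of binding.
GCLM (chr1:93909381-93909680, - strand): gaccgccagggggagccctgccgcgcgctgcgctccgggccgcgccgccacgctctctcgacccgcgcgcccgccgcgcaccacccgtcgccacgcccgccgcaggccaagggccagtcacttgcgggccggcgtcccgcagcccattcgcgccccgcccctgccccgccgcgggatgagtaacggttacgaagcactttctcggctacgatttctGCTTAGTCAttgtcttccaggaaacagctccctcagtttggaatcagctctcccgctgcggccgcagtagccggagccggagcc
TXNRD1 (chr12:104215529-104215828, + strand): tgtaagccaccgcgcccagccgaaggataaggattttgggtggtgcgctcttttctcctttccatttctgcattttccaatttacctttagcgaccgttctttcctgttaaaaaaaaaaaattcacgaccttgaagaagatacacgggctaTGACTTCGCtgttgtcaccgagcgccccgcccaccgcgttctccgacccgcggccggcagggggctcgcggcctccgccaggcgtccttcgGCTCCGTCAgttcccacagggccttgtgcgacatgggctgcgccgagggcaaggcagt
GSTO1 (chr10:104254642-104254941, + strand): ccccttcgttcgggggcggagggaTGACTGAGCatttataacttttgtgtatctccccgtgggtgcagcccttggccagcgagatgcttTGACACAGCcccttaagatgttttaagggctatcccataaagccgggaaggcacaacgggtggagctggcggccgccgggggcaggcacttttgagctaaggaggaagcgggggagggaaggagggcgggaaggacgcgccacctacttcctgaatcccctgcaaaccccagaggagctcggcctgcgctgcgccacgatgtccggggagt
GSTP1 (chr11:67583562-67583861, + strand): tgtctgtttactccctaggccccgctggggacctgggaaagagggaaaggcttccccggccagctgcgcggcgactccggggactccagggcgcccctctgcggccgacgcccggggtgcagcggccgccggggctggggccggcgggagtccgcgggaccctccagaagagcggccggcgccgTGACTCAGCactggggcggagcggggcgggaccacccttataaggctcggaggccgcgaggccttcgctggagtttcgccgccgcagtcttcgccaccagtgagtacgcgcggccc
PARK7 (chr1:7961461-7961760, + strand): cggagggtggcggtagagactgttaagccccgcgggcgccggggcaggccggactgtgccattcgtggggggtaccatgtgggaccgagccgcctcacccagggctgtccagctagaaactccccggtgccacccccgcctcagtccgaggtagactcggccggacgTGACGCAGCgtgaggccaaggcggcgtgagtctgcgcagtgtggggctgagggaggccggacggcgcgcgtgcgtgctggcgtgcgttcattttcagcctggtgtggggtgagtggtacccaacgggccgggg

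The 2 subunits of glutamate cysteine ligase, which makes the first bond of glutathione, differed in opposite directions between genotypes with DMSO. GCLC, the catalytic subunit, had 1673, 1754 and 1280 counts in Cas9 control with DMSO and 3108, 2980 and 2198 in HK3-null, and 1398, 1261 and 925 against 2422, 2063 and 1590 with ATRA. The groups did not overlap within a treatment, and HK3-null was higher by 0.81 ± 0.20 (adjusted p = 0.0052) with DMSO and 0.76 ± 0.20 (adjusted p = 0.00682) with ATRA. GCLC is on chromosome 6, where the median gene was higher too, and both calls ended with that median subtracted (0.29 and 0.19, adjusted p = 0.254 and 0.442). GCLC was -0.40 ± 0.20 and -0.45 ± 0.20 with ATRA in Cas9 control and HK3-null (adjusted p = 0.136 and 0.0849). Neither passed, but both did with the replicate block (0.000106 and 3.21e-05). The fall in HK3-null also passed without HK3-null ATRA replicate 1 or HK3-null DMSO replicate 3. GCLM, the modifier subunit, had 760, 749 and 697 against 562, 647 and 526 counts with DMSO and 584, 552 and 518 against 526, 458 and 347 with ATRA. It was lower in HK3-null by 0.35 ± 0.14 on the log2 scale with DMSO (adjusted p = 0.0467), which ended when any of 9 single libraries was left out (adjusted p = 0.0525 to 0.146), and -0.33 ± 0.14 with ATRA (adjusted p = 0.0537, and 0.0102 with the block). GCLM fell with ATRA by 0.42 ± 0.14 in Cas9 control (adjusted p = 0.0293) and 0.40 ± 0.14 in HK3-null (adjusted p = 0.0304) on the log2 scale. The first of these calls ended without Cas9 control ATRA replicate 2 or 3 or DMSO replicate 1 or 2 (adjusted p = 0.0669 to 0.0893), and the second without HK3-null ATRA replicate 3 or DMSO replicate 1 or 2 (adjusted p = 0.0582 to 0.117). GSS, glutathione synthetase, which adds glycine, was higher in HK3-null by 0.51 ± 0.06 (adjusted p = 4.42e-05) and 0.28 ± 0.06 (adjusted p = 0.00256).

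GSR, the reductase that returns oxidized glutathione to its reduced form, differed more than 2-fold between the genotypes. Its counts were 1644, 1550 and 1488 in Cas9 control with DMSO, 1588, 1583 and 1382 with ATRA, 3648, 3668 and 3298 in HK3-null with DMSO and 4584, 4542 and 4559 with ATRA. HK3-null was higher by 1.18 ± 0.07 (adjusted p = 6.97e-08) and 1.59 ± 0.07 (adjusted p = 7.66e-09). The median gene of its chromosome, 8, was higher by 1.10 and 1.06, and with that median subtracted GSR did not pass with DMSO (0.09, adjusted p = 0.327) and did with ATRA (0.53, adjusted p = 5.66e-05). GSR rose with ATRA in HK3-null by 0.37 ± 0.07 (adjusted p = 0.000779) and was -0.04 ± 0.07 in Cas9 control (adjusted p = 0.654).

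GLRX, the cytosolic glutaredoxin that removes glutathione from proteins, was lowest in the HK3-null DMSO libraries. It had 1644, 1683 and 1698 counts in Cas9 control with DMSO, 2004, 1801 and 1835 with ATRA, 612, 609 and 718 in HK3-null with DMSO and 1465, 1353 and 1748 with ATRA. The HK3-null DMSO libraries lay far below all 9 others, while the ATRA libraries of both genotypes came near each other without overlapping. The difference between genotypes was -1.38 ± 0.10 with DMSO (adjusted p = 3.64e-07) and -0.31 ± 0.10 with ATRA (adjusted p = 0.0152), the latter lost without Cas9 control ATRA replicate 1 (adjusted p = 0.0589) or HK3-null ATRA replicate 2 (adjusted p = 0.067). GLRX rose with ATRA in HK3-null by 1.23 ± 0.10 (adjusted p = 1.1e-06) and was 0.17 ± 0.10 in Cas9 control (adjusted p = 0.192). The mitochondrial glutaredoxin GLRX5, which works in iron-sulfur cluster assembly, fell with ATRA in both genotypes (-0.41 ± 0.10 and -0.62 ± 0.10, adjusted p = 0.00688 and 0.00033) and was lower in HK3-null in both treatments (-0.56 ± 0.10 and -0.77 ± 0.10, adjusted p = 0.000584 and 4.35e-05). GLRX2, the other mitochondrial form, fell with ATRA from 419 to 427 down to 256 to 313 counts in Cas9 control (-0.57 ± 0.12, adjusted p = 0.00261) and was lower in HK3-null with DMSO, at 291 to 333 counts (-0.45 ± 0.12, adjusted p = 0.00736).

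Among the glutathione transferases, which join glutathione to reactive compounds, GSTO1 rose with ATRA in both genotypes. Its counts went from 3659, 3778 and 3659 to 6217, 6069 and 5790 in Cas9 control and from 3815, 3824 and 3783 to 8183, 8859 and 7980 in HK3-null. The DMSO groups differed by 0.04 ± 0.05 (adjusted p = 0.483), and the rise was 0.70 ± 0.05 (adjusted p = 6.44e-07) in Cas9 control and 1.13 ± 0.05 (adjusted p = 9.47e-09) in HK3-null. GSTM4 was lower in HK3-null with DMSO, at 402, 436 and 461 against 620, 651 and 670 counts (-0.58 ± 0.07, adjusted p = 3.1e-05). With ATRA it had 705, 727 and 735 counts in HK3-null, which overlapped the 758, 800 and 732 of Cas9 control (-0.08 ± 0.07, adjusted p = 0.355). It rose with ATRA by 0.74 ± 0.07 in HK3-null (adjusted p = 5.55e-06) and 0.24 ± 0.07 in Cas9 control (adjusted p = 0.0182, lost without Cas9 control ATRA replicate 2 or DMSO replicate 1, at 0.0699 and 0.0689). GSTM4 shares long stretches with other GSTM genes, so its reads may be shared. MGST1, a membrane-bound transferase, fell with ATRA in both genotypes (-0.65 ± 0.09 and -0.77 ± 0.09, adjusted p = 0.000185 and 3.26e-05), and MGST2 was lower in HK3-null in both treatments (-0.51 ± 0.07 and -0.68 ± 0.07, adjusted p = 8.32e-05 and 7.52e-06). MGST3 fell with ATRA in HK3-null (-0.28 ± 0.06, adjusted p = 0.00329). GSTP1, the main transferase of many cultured cells, had 9769 to 10614 counts in Cas9 control and 11214 to 12907 in HK3-null, higher by 0.28 ± 0.06 with DMSO and 0.24 ± 0.06 with ATRA (adjusted p = 0.00143 and 0.00375). Of the peroxidases, GPX1, the abundant cytosolic form, was higher in HK3-null (0.26 ± 0.07 and 0.50 ± 0.07, adjusted p = 0.00777 and 6.54e-05). GPX4, which reduces lipid peroxides, was lower with DMSO (-0.25 ± 0.07, adjusted p = 0.0103) and fell with ATRA in Cas9 control (-0.37 ± 0.07, adjusted p = 0.00148).

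In the thioredoxin branch neither cytosolic thioredoxin (TXN) nor its reductase passed between genotypes. TXN had 7712 to 11140 counts over all libraries and fell with ATRA by about the same amount in both genotypes (-0.34 ± 0.08 and -0.32 ± 0.08, adjusted p = 0.00529 and 0.00554). TXNRD1, the cytosolic reductase, had 9758, 9781 and 7713 counts in Cas9 control with DMSO, 8321, 7521 and 6096 with ATRA, 8175, 8213 and 7027 in HK3-null with DMSO, and 7933, 7717 and 5971 with ATRA. Replicate 3 was the lowest of every group, the groups overlapped, and no comparison passed (adjusted p = 0.0976 to 0.911). With the replicate block TXNRD1 was lower with ATRA in Cas9 control (-0.32 ± 0.04, adjusted p = 0.000159) and HK3-null (-0.12 ± 0.04, adjusted p = 0.035), and lower in HK3-null with DMSO (-0.21 ± 0.04, adjusted p = 0.00162). The first of these also passed without the block when Cas9 control DMSO replicate 3 was left out. SRXN1, sulfiredoxin, which repairs overoxidized peroxiredoxins, had 902, 846 and 760 counts in Cas9 control with DMSO, 1073, 887 and 746 with ATRA, 1091, 1048 and 841 in HK3-null with DMSO and 1129, 1066 and 821 with ATRA. Its groups overlapped as well and no comparison passed (adjusted p = 0.211 to 0.958), while with the block it was higher in HK3-null (0.24 ± 0.06 and 0.16 ± 0.06, adjusted p = 0.00474 and 0.037). Of the mitochondrial pair, TXN2, the thioredoxin, was lower in HK3-null at 3160 to 3456 against 4038 to 4230 counts (-0.38 ± 0.04 and -0.32 ± 0.04, adjusted p = 2.68e-05 and 7.79e-05). TXNRD2, its reductase, was at 649 to 813 counts in Cas9 control with DMSO and at 919 to 1116 in the other groups, and rose with ATRA in Cas9 control (0.45 ± 0.10, adjusted p = 0.00319). TXNIP, which binds and blocks thioredoxin, rose with ATRA from 5623, 5610 and 4634 to 10549, 10396 and 9606 counts in Cas9 control (0.95 ± 0.12, adjusted p = 8.81e-05) and from 5841, 4924 and 4730 to 9215, 8023 and 6670 in HK3-null (0.62 ± 0.12, adjusted p = 0.00127). With ATRA it was lower in HK3-null (-0.36 ± 0.12, adjusted p = 0.0219), which ended without Cas9 control ATRA replicate 1 or 2 or HK3-null ATRA replicate 3 (adjusted p = 0.0602 to 0.087).

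The peroxiredoxins are thiol enzymes that reduce hydrogen peroxide. With ATRA 3 of 6 fell and 1 rose in Cas9 control, where 21.3% and 20.3% of all genes did. In HK3-null 5 fell and 1 rose, against 25.1% and 24.0%. Between genotypes 4 were lower and none higher in HK3-null with DMSO (against 27.1% and 27.9%), and 3 lower and 1 higher with ATRA (against 29.5% and 29.6%). The DMSO calls of PRDX3 and PRDX6 ended when any of 4 and any of 6 single libraries was left out (adjusted p up to 0.0747 and 0.121). Of the 5 falls in HK3-null those of PRDX2 and PRDX6 each ended when any of 4 single libraries was left out (adjusted p up to 0.131 and 0.0826). PRDX1 (chromosome 1, 45511051 to 45522890) fell with ATRA from 13546, 13172 and 12348 to 6951, 6532 and 6006 counts in Cas9 control, and from 9211, 9455 and 9425 to 4411, 4568 and 3613 in HK3-null. The 4 groups did not overlap, and the falls were 1.00 ± 0.08 (adjusted p = 3.53e-06) and 1.16 ± 0.08 (adjusted p = 6.09e-07) on the log2 scale. HK3-null was lower by 0.47 ± 0.08 (adjusted p = 0.000559) with DMSO and 0.64 ± 0.08 (adjusted p = 5.32e-05) with ATRA. PRDX1 has processed pseudogenes that may share reads.

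PRDX2 (chromosome 19, 12796823 to 12801800), a cytosolic peroxiredoxin, differed with the genotype and little with the treatment. Its counts were 785, 674 and 761 in Cas9 control with DMSO, 744, 726 and 744 with ATRA, 293, 267 and 244 in HK3-null with DMSO and 228, 236 and 200 with ATRA. All HK3-null libraries had at most 293 counts and all Cas9 control libraries at least 674, and the difference was -1.47 ± 0.10 (adjusted p = 2.35e-07) with DMSO and -1.74 ± 0.10 (adjusted p = 5.55e-08) with ATRA. Its ATRA response in HK3-null was -0.28 ± 0.10 (adjusted p = 0.0339), which ended without HK3-null ATRA replicate 1 or 3 or DMSO replicate 1 or 2 (adjusted p up to 0.131). PRDX4, the form in the endoplasmic reticulum, fell with ATRA from 4130, 4236 and 3851 to 2463, 2197 and 1923 counts in Cas9 control (-0.90 ± 0.10, adjusted p = 3.78e-05) and from 3510, 3407 and 3368 to 2131, 2190 and 1715 in HK3-null (-0.78 ± 0.10, adjusted p = 7.15e-05). Mitochondrial PRDX3 fell with ATRA in both genotypes (-0.40 ± 0.07 and -0.37 ± 0.07, adjusted p = 0.000591 and 0.000811), and PRDX6 was lower in HK3-null with ATRA (-0.27 ± 0.08, adjusted p = 0.0101). PRDX5, the exception, rose with ATRA in both genotypes (0.56 ± 0.05 and 0.88 ± 0.05, adjusted p = 3.42e-06 and 5.12e-08). With ATRA it was also higher in HK3-null than in Cas9 control (0.31 ± 0.05, adjusted p = 0.000138).

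The 3 methionine sulfoxide reductases of the module, which repair oxidized methionine, rose with ATRA in HK3-null. MSRA (chromosome 8, 10054292 to 10428891) had 637, 547 and 572 counts in Cas9 control with DMSO, 597, 553 and 539 with ATRA, 1487, 1494 and 1482 in HK3-null with DMSO and 1781, 1857 and 1700 with ATRA. It was higher in HK3-null without overlap, by 1.35 ± 0.07 (adjusted p = 3.52e-08) and 1.66 ± 0.07 (adjusted p = 7.66e-09), and rose with ATRA in HK3-null by 0.26 ± 0.07 (adjusted p = 0.00948). With the median of chromosome 8 subtracted the genotype differences were 0.25 and 0.60 (adjusted p = 0.0137 and 3.72e-05). MSRB1 (chromosome 16, 1938229 to 1943199), a selenoprotein, had 2156, 1920 and 1980 counts in Cas9 control with DMSO, 3425, 2919 and 3422 with ATRA, 1974, 1823 and 2000 in HK3-null with DMSO and 5816, 5577 and 6419 with ATRA. The DMSO groups overlapped and the ATRA groups stood apart, with a rise of 0.69 ± 0.08 (adjusted p = 4.2e-05) in Cas9 control and 1.62 ± 0.08 (adjusted p = 2.76e-08) in HK3-null. MSRB2, the mitochondrial form, rose from 54, 28 and 37 to 120, 90 and 106 counts in Cas9 control (1.45 ± 0.22, adjusted p = 0.000291) and from 54, 57 and 61 to 135, 133 and 141 in HK3-null (1.25 ± 0.22, adjusted p = 0.000573). Its difference between genotypes with DMSO, 0.58 ± 0.22 (adjusted p = 0.0404), ended when any of 7 single libraries was left out (adjusted p = 0.0541 to 0.157).

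SESN3 (chromosome 11, 95165513 to 95232475), a sestrin of the stress response that restrains mTORC1, moved in opposite directions. It fell with ATRA in Cas9 control from 5430, 5523 and 5420 to 3252, 2961 and 3476 counts and rose in HK3-null from 5067, 5350 and 4975 to 6673, 5750 and 6259. The fall was -0.76 ± 0.07 (adjusted p = 5.74e-06) and the rise 0.28 ± 0.07 (adjusted p = 0.00522), so genotypes that differed by -0.09 ± 0.07 with DMSO (adjusted p = 0.282) stood 0.95 ± 0.07 apart with ATRA (adjusted p = 3.86e-07). SESN2, its paralog, had 126 to 313 counts, overlapped in all groups and passed in no comparison, though with the replicate block it was lower in HK3-null with DMSO (-0.54 ± 0.20, adjusted p = 0.0336).

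In the superoxide system 3 of the 4 genes tested fell with ATRA in Cas9 control, against 21.3% of all genes, and 2 in HK3-null, against 25.1%. None rose in either, against 20.3% and 24.0%. SOD1, the cytosolic dismutase, fell with ATRA from 7362, 7022 and 6581 to 5044, 4907 and 4300 counts in Cas9 control (-0.56 ± 0.09, adjusted p = 0.000375) and from 5743, 5950 and 5805 to 3642, 3600 and 2936 in HK3-null (-0.79 ± 0.09, adjusted p = 1.76e-05). It was lower in HK3-null with ATRA (-0.49 ± 0.09, adjusted p = 0.000498) and with DMSO (-0.26 ± 0.09, adjusted p = 0.0249, lost without Cas9 control DMSO replicate 1 or 2 or HK3-null DMSO replicate 1 or 3, at 0.0585 to 0.0878). SOD2, the mitochondrial dismutase, fell with ATRA in both genotypes (-0.38 ± 0.11 and -0.53 ± 0.11, adjusted p = 0.0146 and 0.00145). The first of these falls ended without Cas9 control ATRA replicate 3 (adjusted p = 0.0599) or DMSO replicate 2 (adjusted p = 0.0543). SOD2 was higher in HK3-null, at 2851 to 3502 against 1879 to 2123 counts with DMSO (0.66 ± 0.11, adjusted p = 0.00028) and 1970 to 2389 against 1375 to 1747 with ATRA (0.50 ± 0.11, adjusted p = 0.0017). Both calls ended with the median of its chromosome, 6, subtracted (0.14 and -0.07, adjusted p = 0.313 and 0.606). CAT, catalase, was higher in HK3-null with ATRA (0.28 ± 0.06, adjusted p = 0.00107), and PARK7, a redox-sensing protein, was lower in both treatments (-0.34 ± 0.05 and -0.26 ± 0.05, adjusted p = 0.000153 and 0.000908).

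The ATRA responses of both genotypes share no library. Their overlap was counted for the members and not over all genes, so it is a description and not a trait of the module. Both responses hold 7 of the rising genes, 77.8% of the 9 in Cas9 control and 50% of the 14 in HK3-null. They also share 12 of the falling genes, 85.7% of 14 and 70.6% of 17. SESN3 passed in opposite directions and 11 members passed in neither. The difference of the responses was tested directly. It passed in 10 of 45 members, each with the response in HK3-null above that in Cas9 control (22.2%, against 4.48% of all genes), and in 0 the other way (against 4.64%), where 15 members had an unadjusted p under 0.05. The largest were GLRX at 1.07 ± 0.14 (adjusted p = 0.000554), SESN3 at 1.04 ± 0.10 (adjusted p = 6.96e-05), MSRB1 at 0.93 ± 0.11 (adjusted p = 0.000408) and ABCC1 at 0.73 ± 0.17 (adjusted p = 0.0191). FTL (0.51 ± 0.07), GSTM4 (0.50 ± 0.10), FTH1 (0.49 ± 0.10), GSTO1 (0.43 ± 0.07), GSR (0.41 ± 0.09) and PRDX5 (0.32 ± 0.07) followed, with adjusted p from 0.000866 to 0.0197. ABCC1 lost its call without HK3-null DMSO replicate 2 (0.69, adjusted p = 0.0524) and GSR without Cas9 control DMSO replicate 1 (0.37, adjusted p = 0.0514). A replicate block was also fitted, since same-numbered libraries deviated together. Over all 13256 genes it raised the calls from 594 higher and 615 lower to 1371 higher and 1527 lower. With the block 17 of 45 members passed. The 7 added were NFE2L2, GPX1, CAT and MSRA with a higher response in HK3-null, and TXNRD2, TXNIP and GSS with a lower one (-0.46 ± 0.09, -0.33 ± 0.09 and -0.22 ± 0.07, adjusted p = 0.00511, 0.0219 and 0.0388). The single direction of the fit without the block did not hold in it. Nor did it hold without Cas9 control DMSO replicate 1, where TXNRD2 passed with a lower response in HK3-null (-0.53 ± 0.13, adjusted p = 0.0412).

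**Figure D3:**
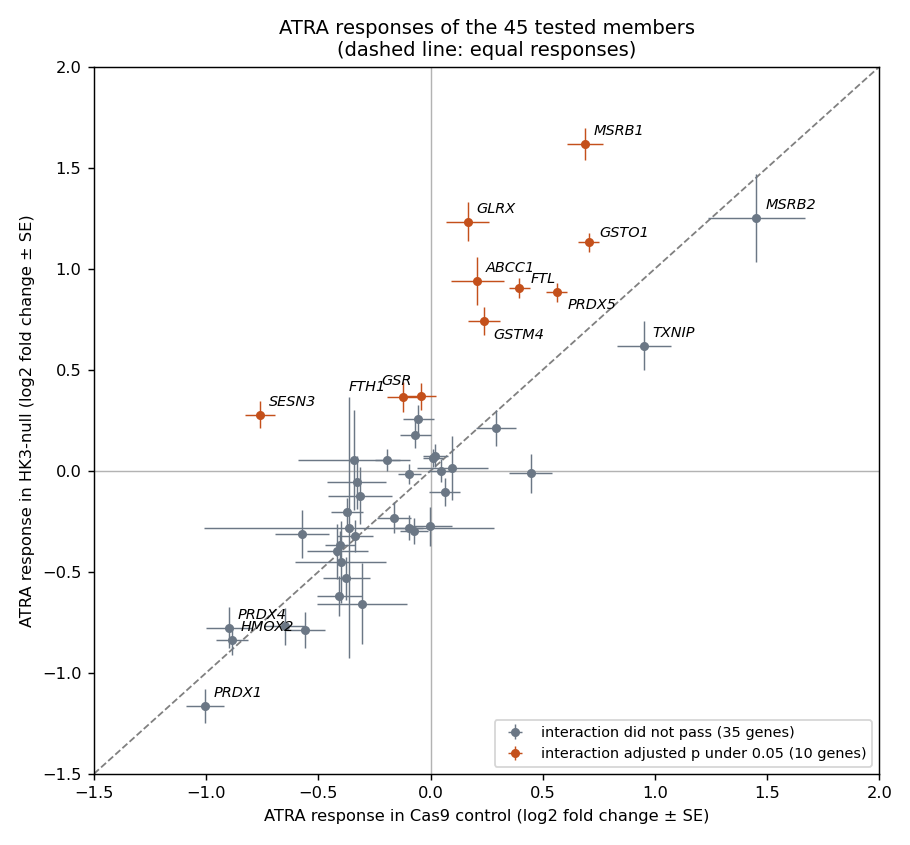
Each point is 1 of 45 genes, with the log2 fold change of ATRA against DMSO in Cas9 control on the horizontal axis and in HK3-null on the vertical axis, error bars being standard errors. The dashed line marks equal responses. The 10 orange points, whose difference passed, all lie above the line, and SESN3 is the one that fell in Cas9 control (-0.76) and rose in HK3-null (0.28).

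Several of the largest genotype differences belong to genes on chromosomes whose median was far from 0. The median over all tested genes of a chromosome, HK3-null against Cas9 control, was 1.10 with DMSO and 1.06 with ATRA on chromosome 8 (427 genes), 0.52 and 0.57 on chromosome 6 (668 genes), and -0.75 and -0.78 on chromosome 5 (573 genes). GSR and MSRA are on chromosome 8, GCLC and SOD2 on chromosome 6 and GLRX on chromosome 5, and all 5 passed in both treatments. On the other chromosomes 23 of 40 members passed in each treatment. With DMSO 8 were higher and 15 lower (20% and 37.5%, against 27.9% and 27.1% of all genes on any chromosome). With ATRA 13 were higher and 10 lower (32.5% and 25%, against 29.6% and 29.5%). The values with the median subtracted stand with GSR, MSRA, GCLC and SOD2 above. With its chromosome median subtracted GLRX stayed lower with DMSO (-0.62 ± 0.09, adjusted p = 0.000237) and was higher than its chromosome with ATRA (0.47 ± 0.09, adjusted p = 0.0014). PRDX2, NQO1, ABCC1, SESN3 and MSRB1 are on chromosomes whose median lay between -0.01 and 0.12 in both treatments.

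**Figure D4:**
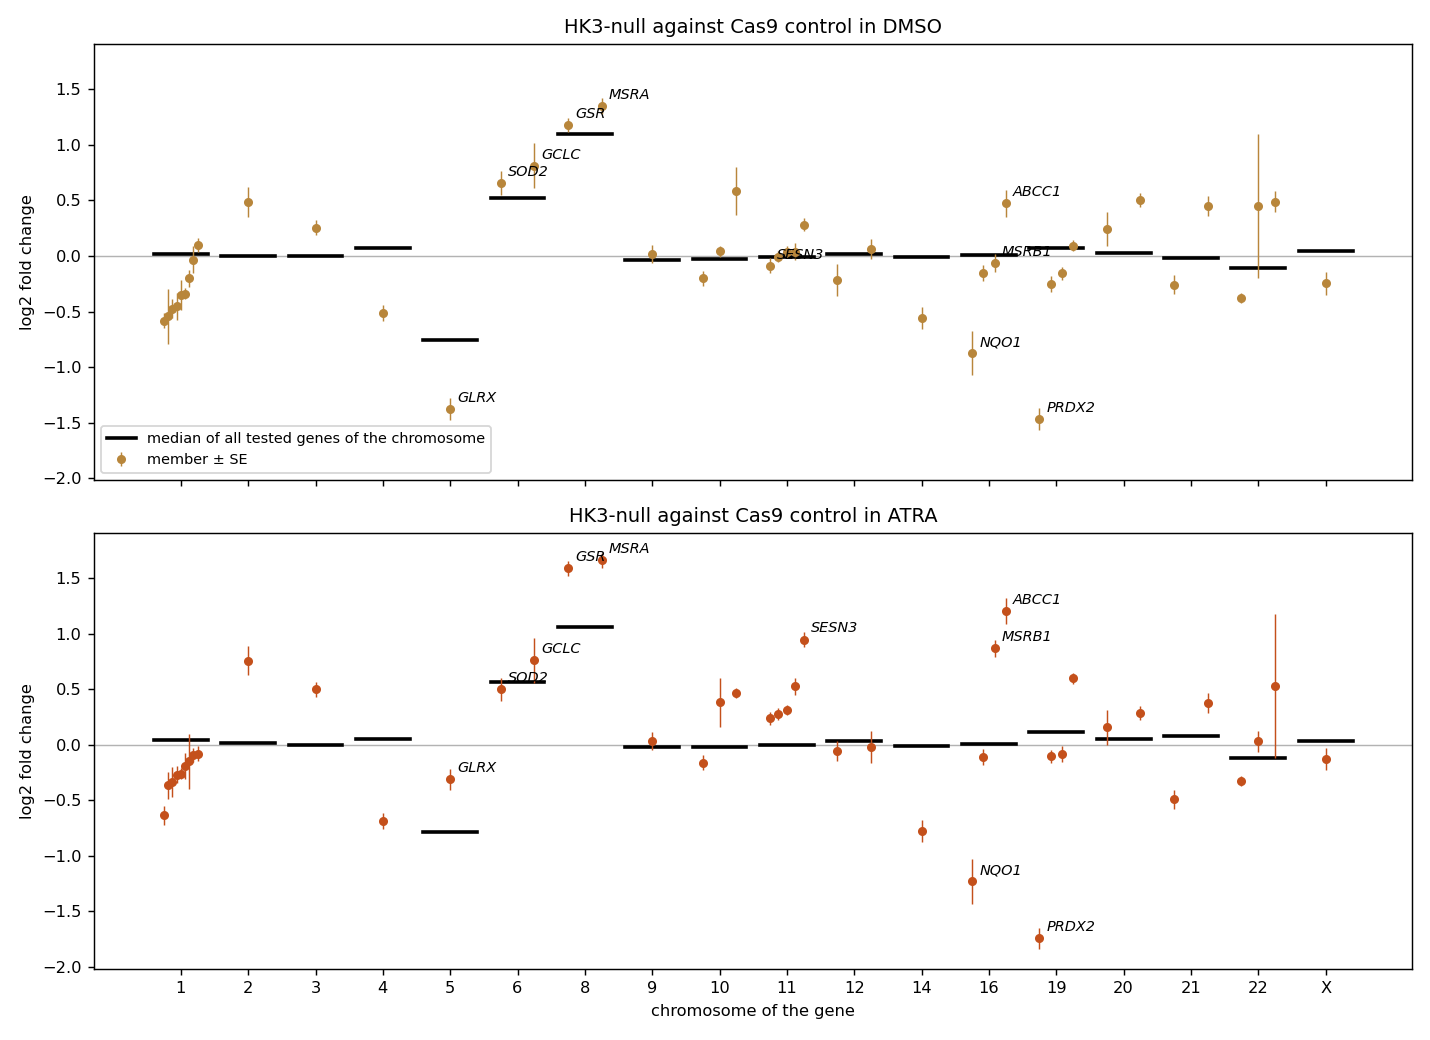
Points are members placed by chromosome with their log2 fold change of HK3-null against Cas9 control and its standard error, with DMSO above and with ATRA below. The black bar is the median of all tested genes of that chromosome. GSR and MSRA sit near the bar of chromosome 8 with DMSO (1.18 and 1.35 against 1.10), while PRDX2 and NQO1 lie far below theirs.

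The genotype comparisons in DMSO and in ATRA, which share no library either, held 10 higher members in common (83.3% of 12 and 58.8% of 17) and 10 lower (62.5% of 16 and 90.9% of 11). None passed in opposite directions and 9 passed in neither. Besides other calls given above, leaving out single libraries ended those of PRDX3 and PRDX6 with DMSO (adjusted p up to 0.0747 and 0.121). Among the ATRA responses it ended those of CAT in Cas9 control (up to 0.0634) and of GLRX2, GPX1, GPX4, PRDX2 and PRDX6 in HK3-null (up to 0.184, 0.162, 0.113, 0.131 and 0.0826).

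The genes around the module were counted from lists of the same pathways. The shares over all genes were 20.3% rising and 21.3% falling with ATRA in Cas9 control, and 24.0% and 25.1% in HK3-null. Between genotypes they were 27.9% higher and 27.1% lower in HK3-null with DMSO and 29.6% and 29.5% with ATRA. Of 8 genes of the NADPH oxidase and the granule peroxidases, 7 were higher and 0 lower in HK3-null in either treatment. Without EPX, which has libraries at 0, 6 of 7 were higher. CYBB, the catalytic subunit of the oxidase, had 180 to 251 counts in Cas9 control with DMSO, 5871 to 6412 with ATRA, 7412 to 8696 in HK3-null with DMSO and 44349 to 47716 with ATRA (5.20 ± 0.11 between genotypes with DMSO, adjusted p = 4.76e-11). EPX, eosinophil peroxidase, was at 0 to 3 counts in Cas9 control and at 346 to 694 in HK3-null. Of 12 genes of NADPH supply, 5 rose and 3 fell with ATRA in Cas9 control and 4 rose and 4 fell in HK3-null, led by PGD of the pentose phosphate pathway (1.10 ± 0.04 and 1.87 ± 0.04, adjusted p = 7.68e-09 and 1.26e-10).

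Cystine and cysteine supply limits how much glutathione can be made. Of 5 genes with counts in every library, 4 fell and 0 rose with ATRA in Cas9 control (against 21.3% and 20.3% of all genes). The difference of the responses passed in 3, all higher in HK3-null, against 4.48% of all genes. SLC7A11, the cystine transporter, had 744 to 1366 counts in Cas9 control with DMSO, 729 to 1267 with ATRA, 442 to 621 in HK3-null with DMSO and 1525 to 2267 with ATRA. It was lower in HK3-null with DMSO (-0.95 ± 0.26, adjusted p = 0.00957) and higher with ATRA (0.87 ± 0.26, adjusted p = 0.014), with a rise of 1.74 ± 0.26 in HK3-null (adjusted p = 0.000203). CBS, the sixth gene of the list, which feeds homocysteine into cysteine synthesis, is left out of these counts for its libraries at 0. It was at 0 to 3 counts in Cas9 control, at 64 to 72 in HK3-null with DMSO and at 19 to 27 with ATRA. Of 10 other genes that NRF2 also induces, with counts in every library, 5 were higher and 3 lower in HK3-null with DMSO (against 27.9% and 27.1% of all genes). With ATRA 6 were higher and 0 lower in HK3-null (against 29.6% and 29.5%). AKR1C3, an aldo-keto reductase outside these counts, was at 3 to 7 counts in Cas9 control and at 0 in HK3-null with DMSO, and at 120 to 135 and 12 to 13 with ATRA. Of 9 partners and adaptors of NRF2, 5 were higher and 2 lower in HK3-null with DMSO (against 27.9% and 27.1% of all genes). With ATRA 4 were higher and 1 lower (against 29.6% and 29.5%). MAFF, a small Maf protein at 16 to 26 counts in Cas9 control with DMSO, was higher in both treatments (1.97 ± 0.32 and 3.21 ± 0.32, adjusted p = 0.000325 and 6.12e-06). SQSTM1, which sequesters KEAP1, was higher with ATRA (1.04 ± 0.10, adjusted p = 4.22e-06). BACH2 was lower with DMSO, at 2 to 4 against 7 to 10 counts (-1.515 ± 0.42, adjusted p = 0.01).

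Of 14 tested further members of the same families, 6 were higher and 3 lower in HK3-null with DMSO (against 27.9% and 27.1% of all genes). MSRB3, a further methionine sulfoxide reductase, differed most. It had 2015 to 2099 counts in Cas9 control and 123 to 131 in HK3-null (-4.02 ± 0.08, adjusted p = 1.9e-11). GSTM3 was higher in HK3-null in both treatments (2.67 ± 0.23 and 3.40 ± 0.23, adjusted p = 1.88e-06 and 2.3e-07). Of 9 tested genes of glutathione turnover and export, ABCC4, an exporter, fell with ATRA in both genotypes (-0.75 ± 0.09 and -1.26 ± 0.09, adjusted p = 4.47e-05 and 4.28e-07). Of 7 genes of selenoprotein synthesis, 2 were higher and 2 lower in HK3-null with DMSO (against 27.9% and 27.1% of all genes). None passed for the difference of the ATRA responses, where 4.48% of all genes were higher and 4.64% lower.

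Accessible chromatin was measured in 8286 regions, and the 23 that name a member cover 14 members. The deposited regions all differ at least 1.65-fold between the genotypes with ATRA, by the authors' selection. That difference is a description here (18 of the 23 higher in HK3-null, 5 lower), and only the comparison with DMSO was tested. Its libraries are others but come from the same 2 cell populations. A difference between them that does not depend on ATRA was thus already selected for, and the DMSO tests are not independent of the selection. Of 20 member regions with enough signal, 11 were higher and 5 lower in HK3-null with DMSO (limma on log2(signal + 1), n = 2 per group), where 42.7% of all 6214 tested regions were higher and 43.9% lower. Of the 11 higher regions 7 lie in GSR and MSRA on chromosome 8, and on the other chromosomes 4 were higher and 5 lower of 13. These 13 include a GCLC region on chromosome 6 and the GLRX region on chromosome 5, whose RNA medians also lay far from 0. The median log2 fold change was 0.68, against 0.33 over all tested regions, and 0.25 off chromosome 8. The regions lay at a transcript start (4), in an exon (4), in an intron (12) or outside the gene (3), by the GENCODE annotation of GRCh38. Leaving out single libraries gave 11 to 16 regions passing.

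Among the member regions with the highest signal, the one over a GCLC transcript start in GENCODE, upstream of the start in RefSeq, had 227.8 and 268.5 signal units in Cas9 control with DMSO, 239.5 and 155.2 with ATRA, 407.5 and 398.4 in HK3-null with DMSO and 379.5 and 444.1 with ATRA. All HK3-null values lay above all Cas9 control values (0.70 ± 0.28 with DMSO, adjusted p = 0.0211), and GCLC RNA was higher in HK3-null too. The median RNA change of its chromosome, 6, was 0.52 with DMSO, and the GCLC RNA call ended with that median subtracted (adjusted p = 0.254). Region values were not adjusted for the chromosome. The region 393 bases downstream of FTL, also listed for BAX and GYS1, had 98.8 and 90.6 units in Cas9 control with DMSO and 116.2 and 75.7 with ATRA. In HK3-null it had 142.7 and 157.0 with DMSO and 165.5 and 230.0 with ATRA (0.66 ± 0.29 between genotypes with DMSO, adjusted p = 0.0333). FTL RNA differed by 0.09 ± 0.05 with DMSO (adjusted p = 0.128). The GLRX region, in an intron by GENCODE and beyond the gene's end in RefSeq, had 229.5 and 255.8 units in Cas9 control with DMSO, 275.2 and 182.6 with ATRA, 115.4 and 105.9 in HK3-null with DMSO and 85.2 and 88.3 with ATRA (-1.13 ± 0.28, adjusted p = 0.000507). GLRX RNA was lower too, on a chromosome, 5, whose median RNA change was -0.75 with DMSO. With that median subtracted GLRX RNA stayed lower with DMSO (-0.62, adjusted p = 0.000237). The region 8138 bases upstream of HMOX2, also listed for DNAJA3 and NMRAL1, had 30.6 and 22.3 units in Cas9 control with DMSO, 30.0 and 18.2 with ATRA, 217.3 and 215.0 in HK3-null with DMSO and 116.2 and 130.4 with ATRA (3.00 ± 0.31, adjusted p = 1.82e-10). HMOX2 RNA with DMSO was -0.15 ± 0.07 (adjusted p = 0.0863). TXN2, mitochondrial thioredoxin, had an exonic region with 193.4 and 218.8 units in Cas9 control with DMSO, 85.8 and 47.8 with ATRA, 248.2 and 215.9 in HK3-null with DMSO and 156.9 and 170.9 with ATRA. Its DMSO groups overlapped (0.17 ± 0.29, adjusted p = 0.574).

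The element core was found in the central 300 bases of 9 of the 23 member regions (39.1%) and of 1283 of all 8286 regions (15.5%), a count over regions of which several belong to the same gene. Sequences are shown for GCLC and FTL, which hold the core in capitals, and for GLRX and HMOX2, the regions with the largest fall and rise among the most accessible ones, in which these letters are absent. Each is the central 300 bases on the + strand of GRCh38.
GCLC region (chr6:53547944-53548243): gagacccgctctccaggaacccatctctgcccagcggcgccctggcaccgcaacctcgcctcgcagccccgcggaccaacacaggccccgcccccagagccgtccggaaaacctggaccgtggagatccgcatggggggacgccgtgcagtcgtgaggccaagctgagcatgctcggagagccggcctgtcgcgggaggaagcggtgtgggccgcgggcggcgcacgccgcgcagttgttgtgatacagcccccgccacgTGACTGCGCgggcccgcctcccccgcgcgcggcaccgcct
FTL region (chr19:48967639-48967938): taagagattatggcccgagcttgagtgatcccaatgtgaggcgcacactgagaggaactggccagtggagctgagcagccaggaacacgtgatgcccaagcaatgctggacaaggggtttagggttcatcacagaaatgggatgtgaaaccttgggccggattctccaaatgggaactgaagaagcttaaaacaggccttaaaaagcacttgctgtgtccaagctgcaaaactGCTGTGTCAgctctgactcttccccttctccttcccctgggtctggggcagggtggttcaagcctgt
GLRX region (chr5:95808764-95809063): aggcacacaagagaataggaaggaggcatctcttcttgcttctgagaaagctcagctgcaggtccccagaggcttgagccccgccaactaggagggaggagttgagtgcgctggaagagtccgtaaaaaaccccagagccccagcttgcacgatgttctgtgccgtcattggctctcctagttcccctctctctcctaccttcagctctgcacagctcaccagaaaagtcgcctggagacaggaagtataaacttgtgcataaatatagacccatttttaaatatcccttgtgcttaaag
HMOX2 region (chr16:4466043-4466342): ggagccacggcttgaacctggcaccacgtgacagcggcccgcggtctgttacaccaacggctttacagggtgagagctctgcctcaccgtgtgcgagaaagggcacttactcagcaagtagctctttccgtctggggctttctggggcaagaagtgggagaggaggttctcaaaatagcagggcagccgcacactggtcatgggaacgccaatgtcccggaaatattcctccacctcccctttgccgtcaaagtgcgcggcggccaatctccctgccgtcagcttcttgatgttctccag

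**Figure D5:**
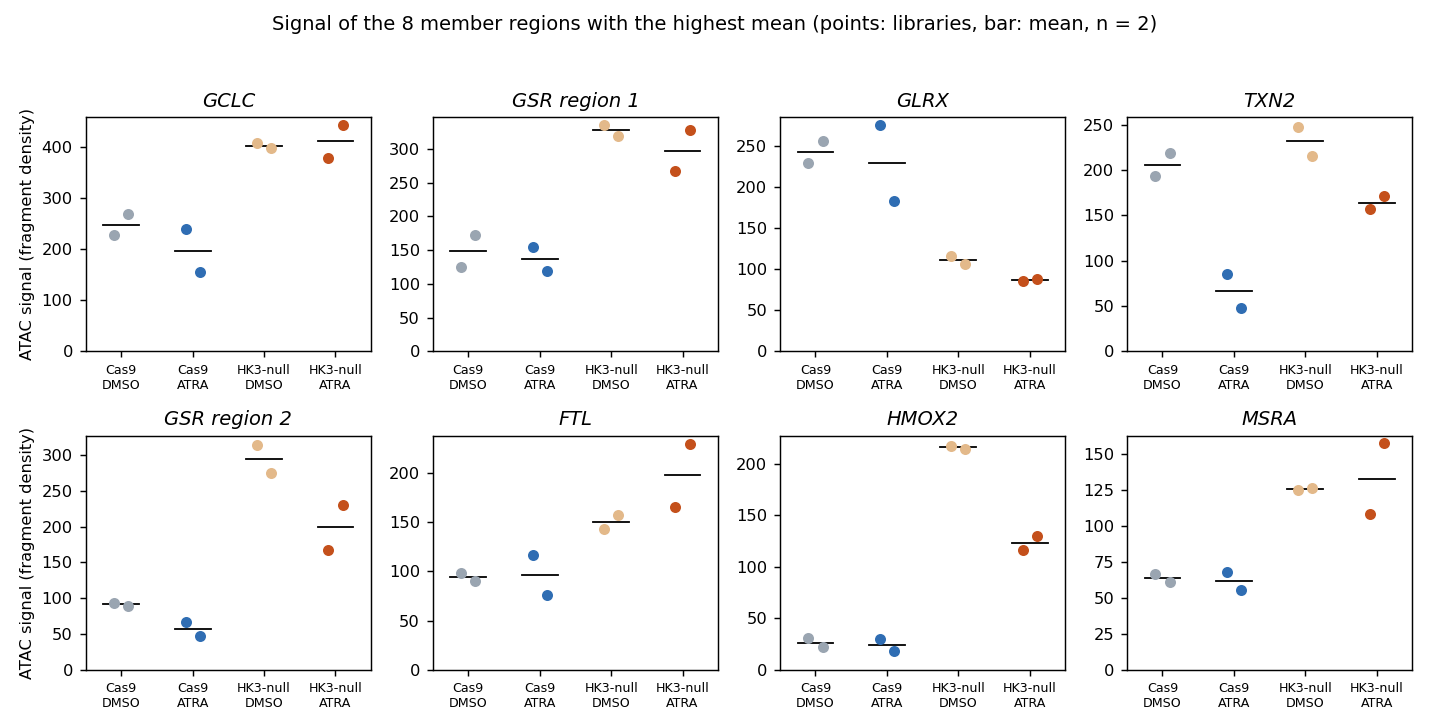
ATACseq signal, a fragment density, on the vertical axis for the 8 member regions with the highest mean, with the 4 groups along the horizontal axis, 2 libraries as points and their mean as a bar. GCLC, both GSR regions, FTL, HMOX2 and MSRA are higher in HK3-null, GLRX is lower, and TXN2 separates only with ATRA, the comparison on which the regions were selected.

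Of the 23 member regions 8 are on chromosome 8, in GSR and MSRA, whose RNA shift is given above. The GSR region at the start of the gene had 125.5 and 172.5 against 336.2 and 319.6 units with DMSO (1.15 ± 0.28, adjusted p = 0.000394) and 154.9 and 119.3 against 267.1 and 328.4 with ATRA. An intronic GSR region had 93.6 and 89.0 against 313.3 and 274.4 units with DMSO (1.67 ± 0.28, adjusted p = 3.26e-06) and 66.6 and 47.6 against 167.7 and 230.1 with ATRA. The region at the start of MSRA had 66.5 and 61.2 against 124.8 and 126.7 units with DMSO (0.97 ± 0.29, adjusted p = 0.00269) and 67.8 and 55.6 against 108.4 and 157.6 with ATRA. The genotypes did not overlap in any of them. Another GSR region and 3 more in introns of MSRA passed in the same direction (0.84 to 2.31), and 1 MSRA region was under the filter, as were 1 each of GCLC and GSTO1. Elsewhere signal was lower in HK3-null for GSTM4 (-2.34 ± 0.35, adjusted p = 4.62e-07), whose RNA was lower too. It was also lower for a region upstream of PRDX4 (-1.61 ± 0.43, adjusted p = 0.00109) and for one in an intron of TXNRD1 (-1.11 ± 0.35, adjusted p = 0.00441). With DMSO, RNA of TXNRD1 passed only with the replicate block. RNA of PRDX4 was -0.25 ± 0.10 (adjusted p = 0.0593). It passed with the block and in some settings without it, among them the chromosome median subtracted. TXNRD2, mitochondrial thioredoxin reductase, had an exonic region with lower signal (-1.14 ± 0.31, adjusted p = 0.00124) and one at a transcript start with higher signal (1.37 ± 0.36, adjusted p = 0.000954). TXNRD2 RNA was higher in HK3-null with DMSO (0.49 ± 0.10, adjusted p = 0.00112). The regions of ABCC1 (0.53 ± 0.38), MGST2 (0.29 ± 0.37) and an intron of TXN2 (0.25 ± 0.36) did not pass (adjusted p = 0.178, 0.454 and 0.508).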

How the data were processed

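RNA was measured in 12 libraries and accessible chromatin in 8 libraries of HL60 cells, and groups come from the labels. The RNA values were deposited by the authors on a log2 scale. Below 1000 counts, 2 to the value is a whole number (within 0.00336), so they are scaled counts, with 0 written as log2 of 0.001. The submitters' processing notes name DESeq2. The sources used here give no RNA aligner or counting program. The ATACseq values are deposited signal: the authors aligned with bwa, removed duplicates, sampled every library down to an equal number of tags, merged the MACS2 peaks of each library and took the fragment density per region (GRCh38), so depth is unknown. The 330 rows without a gene name (at most 0.00926% of counts) were left out.

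One limma 3.58.1 model in R 4.3.3 (lmFit, eBayes with trend, two-sided, Benjamini-Hochberg) gave each of the 4 groups a mean on the log2 values. It held the 13256 genes that exceeded a log2 value of 3 (8 counts) as the mean of any group. For ATACseq, log2(signal + 1) was fitted for 6214 regions averaging over 17.08 units (percentile 25). The pseudocount understates changes of low regions. Fold changes and standard errors are on these log2 scales. Of 8371 pairs of region and listed gene, 8326 (99.5%) lay within 100 kb in RefSeq GRCh38. Scripts were tested on simulated data.

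Same-numbered RNA libraries deviated together (18 pairs, r = 0.229 to 0.638 over 10551 genes, other pairs -0.653 to 0.293), so the replicate numbers of the labels were taken to pair them. The replicate block is an alternative, beside the value for 0, the filter, quantile normalization, the libraries fitted, the threshold, the chromosome median and leaving out each library.

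The members and lists were chosen with earlier results of these data known. Described by library are 9 fixed genes and the 6 largest changes that passed in each comparison (24 genes in all), and the 8 regions with the highest mean signal. Other members named were chosen after their values were seen, and the genes named from other lists are among the 2 largest changes of their list. The study describes biological replicates, and p-values measure the spread between these cultures.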

Additional observations from a re-analysis of the deposited data

Results flagged for a closer look

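The response to ATRA differed between the genotypes in 10 of 45 members, by the interaction term in limma. All 10 were higher in HK3-null (22.2%), where 4.48% of all genes were higher and 4.64% lower. With the replicate block 7 more members passed, among them TXNRD2, TXNIP and GSS with a lower response in HK3-null, so the single direction did not hold. The response in HK3-null exceeded that in Cas9 control by 1.07 on the log2 scale in GLRX, 1.04 in SESN3, 0.93 in MSRB1, 0.73 in ABCC1, 0.51 in FTL, 0.50 in GSTM4, 0.49 in FTH1, 0.43 in GSTO1, 0.41 in GSR and 0.32 in PRDX5. SESN3 fell in Cas9 control and rose in HK3-null, while GLRX, ABCC1, FTH1 and GSR passed in HK3-null and not in Cas9 control. In MSRB1, FTL, GSTM4, GSTO1 and PRDX5 both genotypes rose, HK3-null more. The maturation markers given at the start also reached their highest level in HK3-null with ATRA, and their part in these differences was not tested.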

How the results depend on the processing

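Of the gene-level values recomputed under an alternative, 675 kept their side of the threshold (8 of these, not called, changed sign), 31 lost the call, 22 gained it and 1 called value reversed. The reversal was GLRX between genotypes with ATRA, 0.47 with the chromosome median subtracted, since that median is lower still. In that setting the calls of GCLC and SOD2 ended in both treatments and that of GSR with DMSO. Of the counts of members passing, 104 stayed within 1.5 times the reported count and 11 did not. With an unadjusted p under 0.05 and a fold of at least 1.5, the counts were 9 and 16 for the ATRA responses in Cas9 control and HK3-null, 7 and 13 for the genotype comparisons with DMSO and ATRA, and 4 for the difference of the responses. With an adjusted p and a fold of at least 2 they were 2, 5, 4, 5 and 2. The replicate block raised the difference of the responses from 10 to 17 members. Over all 13256 genes the calls rose from 594 higher and 615 lower to 1371 higher and 1527 lower. The block ended no RNA call of a member, and gave 15 ATAC regions in place of 16. Leaving out single libraries gave 20 to 24, 24 to 31, 22 to 29, 26 to 30 and 9 to 11 members in the same order, and 11 to 16 regions. With no filter on low values FTL lost its call with ATRA in Cas9 control, and FTL and ABCC1 that on the difference of the responses, as PRDX5 did with quantile normalization. The precision of HMOX1 and MSRB2 is limited by few counts, and that of ATACseq by 2 libraries a group.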
